A study of Mus musculus with 12 samples.

Results

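Granins and the enzymes and helper proteins that make peptides inside dense-core vesicles were examined in cultured sensory neurons, as the rows of 10 gene symbols found in both deposited count tables: Chga, Chgb, Scg2, Scg3, Scg5, Pcsk1, Pcsk2, Pcsk1n, Cpe and Pam. All 10 were present in each table, among 9112 genes listed for the libraries labelled Cre+ and 14177 for those labelled Cre-, and all 10 passed the filter of a mean FPKM above 1 (FPKM is a read count scaled for transcript length and library depth). They were selected on the pull-down to input values of both genotypes, which were known when the set was drawn up, so the enrichment values of the members are given below as a description. Where members are counted as called, the share of all genes called stands beside the count, and no test is read from it. The comparison of the inputs was not part of that choice and was tested. The cells were dorsal root ganglion (DRG) neurons, from all ganglia of male mice aged 3 to 6 months per the labels (the methods give a younger age), which had been purified on Percoll and kept 24 h in culture, with 5 mice pooled into each sample. All mice were homozygous for the RiboTag allele, genotype Rpl22HA/HA, in which Cre recombinase switches the ribosomal protein Rpl22 to an HA-tagged form. The groups labelled Rpl22HA/HA Runx3-Cre+ also carried Cre driven by Runx3, a transcription factor of proprioceptive neurons, and those labelled Rpl22HA/HA Runx3-Cre- did not. By label, the Cre- cultures thus made no tagged Rpl22, and their pull-downs are the control without the tag. The paper found ribosomal RNA undetectable in pull-downs from ganglia of Cre- animals. What the pull-downs labelled Cre- bound was not tested here. From each genotype, RNA of 3 HA pull-downs and of 3 inputs (10% of the lysate) was sequenced, 12 libraries in all.

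Dense-core vesicles are the organelles from which neurons and endocrine cells release neuropeptides. Granins are acidic, soluble proteins that aggregate in the trans-Golgi network, help to form the granule core and are themselves cut into peptides. Inside the granule, prohormone convertases cut precursors after paired basic residues, a carboxypeptidase trims the exposed lysines and arginines, and an amidating enzyme modifies the C terminus. Small helper proteins chaperone or inhibit the convertases. In DRG neurons this pathway yields peptides such as calcitonin gene-related peptide and substance P.

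The members differ in what their genes look like, and short stretches that carry the paired basic codons of the precursors and a motif of the promoters are shown here. In the longest coding transcript of GENCODE M21 (GRCm38), acidic codons (Asp or Glu) made up 23.2% of Chgb, 21.8% of Chga, 19.7% of Scg3 and 19.1% of Scg2, against a median of 11.9% over 10760 tested genes, so these 4 granins lay between the percentiles 96.7 and 99.2. Scg5 followed with 14.6%, and the convertases, Pcsk1n, Cpe and Pam held 12.6% to 14.1%. Adjacent codons for Lys or Arg occurred 23 times in the 677 codons of Chgb, which at 3.4 per 100 codons placed it at percentile 91.6, and 7 times in the 212 codons of Scg5, at percentile 91.1. The following stretches of 60 coding bases are those of Chgb, Chga and Scg2 with the most such pairs, read 5′ to 3′ on the coding strand, with the paired basic codons in capitals. They lie at chr2:132792707-132792766 (plus strand, exon 4 of 5), chr12:102561669-102561728 (plus strand, exon 6 of 8) and chr1:79436108-79436167 (minus strand, exon 2 of 2). A codon pair is a description of the sequence and not evidence of a cleavage site.
Chgb: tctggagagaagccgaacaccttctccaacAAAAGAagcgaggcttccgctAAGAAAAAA
Chga: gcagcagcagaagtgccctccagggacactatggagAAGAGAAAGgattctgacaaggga
Scg2: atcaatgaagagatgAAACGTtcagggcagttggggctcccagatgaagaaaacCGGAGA

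Promoter windows from 250 bases before to 50 after each start (RefSeq, GRCm38.p6) were matched for 9 of the 10 members, all except Cpe. The letters TGACGTCA, the palindromic cAMP response element, were found in 3 of these 9 (Chgb, Scg2 and Pcsk1) and in 2.03% of the 27025 genes with a window. The shorter TGACGT, which is contained in TGACGTCA on both strands and was searched on both strands, was found in 5 of 9 (the same 3, Chga and Scg5) and in 8.37% of all genes. The stretches of 30 bases below hold the longer motif of Chgb, Scg2 and Pcsk1 and the shorter one of Chga in capitals (the matches of Scg5 and a further shorter match of Pcsk1 are not shown), at chr2:132781559-132781588 (plus strand), chr1:79440076-79440105 (minus strand), chr13:75089768-75089797 (plus strand) and chr12:102554885-102554914 (plus strand). The match of Chgb and that of Scg2 lie within an exon of a GENCODE transcript of the gene, outside its RefSeq span, and that of Pcsk1 lies outside GENCODE exons of the gene but within its RefSeq span. The genes with the longer motif differed in the sign of their pull-down to input value in the libraries labelled Cre-, which was 1.32 (SE 0.139) for Chgb, 0.65 (SE 0.206) for Pcsk1 and -0.57 (SE 0.17) for Scg2 on the log2 scale.
Chgb: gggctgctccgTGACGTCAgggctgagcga
Scg2: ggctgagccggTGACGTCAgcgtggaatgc
Pcsk1: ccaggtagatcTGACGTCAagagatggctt
Chga: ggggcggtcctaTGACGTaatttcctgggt

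On GRCm38 the granin genes lie at chr12:102554941-102565027 (Chga), chr2:132781642-132795079 (Chgb), chr1:79434366-79440026 (Scg2), chr9:75643366-75685959 (Scg3) and chr2:113776313-113829091 (Scg5). The processing genes lie at chr13:75089420-75134861 (Pcsk1), chr2:143546133-143816284 (Pcsk2), chrX:7919822-7924410 (Pcsk1n), chr8:64592542-64693109 (Cpe) and chr1:97821091-98095853 (Pam). The sources used here do not say whether reads were counted by strand. Exon bases shared with another annotated gene came to 4.54% for Pcsk2 (2 antisense RNAs), 6.16% for Pcsk1n (Eras, on the opposite strand) and 1.58% for Pam, and to 0 for the other 7 members.

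Counts on the listed genes ranged from 8886308 to 18633365 per library, and every member had at least 29 counts in every library. The driver gene Runx3 was called enriched in the pull-downs labelled Cre- (log2 fold 3.52, SE 0.428, edgeR FDR 0.000236). It was positive but not called in those labelled Cre+ (1.55, SE 0.872, FDR 0.309), which had 205, 17 and 96 counts. The difference between the labels was not called for Runx3 (-1.92, SE 0.995, FDR 0.304). Groups are named here by their labels only. The paper's own comparison runs the way the labels say. It reports significant overlap of enriched genes between Runx3-Cre+ cultures and Runx3-Cre+ tissue, and poorer consistency for Cre- cultures. An exchange of labels was not tested. The column names of the pull-downs labelled Cre+ match titles of the Cre- pull-downs apart from punctuation, and these columns were assigned as a group, with numbers that only tell the libraries apart. Of 7 proprioceptor markers, 6 were called enriched in the pull-downs labelled Cre- (6.01% of all genes). In those labelled Cre+, 1 of 6 tested (Ntrk3) was called enriched (4.72%), and 5 of the 6 were positive. For the difference between the labels, 2 of 6 were called lower labelled Cre+ (2.10%), 4 were negative and 2 positive. The summed level of 9 pan-neuronal markers was 48600 to 56100 normalized counts (counts scaled with TMM to a library of 1000000) in the pull-downs labelled Cre- against 23700 to 28600 in their inputs, and 22200 to 24200 in the pull-downs labelled Cre+ against 20600 to 27200. Of these 9, 2 were called depleted labelled Cre+ (2.19% of all genes), Tubb3 (log2 fold -1.19, FDR 0.0448) and Uchl1 (-1.85, FDR 0.0342), and 4 were positive. Labelled Cre-, 3 were called enriched (6.01%) and 0 depleted, with 6 positive and 3 negative. For the log2 fold labelled Cre+ minus that labelled Cre-, 8 of 9 were negative, with a median of -0.80 against 0.13 over all genes. Uchl1 (-1.95, FDR 0.0196) and Snap25 (-1.75, FDR 0.0155) were called lower there (2.10% of all genes). Markers of sympathetic or chromaffin cells, which are rich in chromogranins, summed to at most 53.8 in any library, with 3 of that list's 6 genes listed labelled Cre- and 1 labelled Cre+. The pull-downs labelled Cre+ resembled each other least, with pairwise correlations of log counts of 0.706 to 0.847, against 0.919 to 0.978 for the inputs of both labels and 0.943 to 0.972 for the pull-downs labelled Cre-.

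The 10 members together held 0.312% to 0.360% of all counts in the inputs labelled Cre+ and 0.322% to 0.351% in those labelled Cre-. In the pull-downs labelled Cre- the share was 0.320%, 0.287% and 0.285%, and in those labelled Cre+ it was 0.0782%, 0.176% and 0.211%. Library 1 of the Cre+ pull-downs thus held the smallest share. In bulk RNA, fewer cells expressing a gene and less of its RNA per cell cannot be told apart.

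To order the members by level, normalized counts were divided by the length of the longest coding transcript in kilobases. Carboxypeptidase E (Cpe), which trims basic residues and sorts cargo, was highest in the inputs, with 478 ± 115 normalized counts per kilobase labelled Cre+ and 457 ± 53.7 labelled Cre- (SD, n = 3). The granin Scg3, which binds other granins to the vesicle membrane, followed with 284 ± 31.4 and 322 ± 30.5, and Scg2, the precursor of secretoneurin, with 176 ± 19.8 and 210 ± 20.7. Chgb (chromogranin B) was next with 101 ± 10.2 and 114 ± 8.26. Below these came the convertase inhibitor Pcsk1n with 69.3 ± 22.4 and 73.8 ± 6.81, and the amidating enzyme Pam with 37.9 ± 5.22 and 45.8 ± 5.17. The convertase chaperone Scg5, the convertase Pcsk2, the granin Chga and the convertase Pcsk1 were lowest, at 33.0, 17.1, 11.6 and 8.85 labelled Cre+ and 26.8, 21.4, 15.9 and 8.68 labelled Cre-. The order of the 10 was the same in both sets of inputs. No neighbours in it overlapped in the inputs labelled Cre-, whereas Chgb with Pcsk1n, Pam with Scg5, and Chga with Pcsk1 overlapped over the 3 inputs labelled Cre+.

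The order differed in the pull-downs. In those labelled Cre-, Chgb moved from the fourth to the second place with 284 ± 5.47 per kilobase, 21.6% ± 0.305 of the summed level of the members against 8.81% ± 0.725 in input, and its libraries overlapped those of Scg3 at 214 ± 70.5. Pam went by its mean from the sixth to the eighth place there, with 22.4 ± 4.7, and overlapped Scg5 at 22.8 ± 8.62 and Chga at 21.8 ± 2.87. In the pull-downs labelled Cre+, Scg5 went by its mean from the seventh to the last place, with 3.7 ± 0.896 per kilobase and 0.569% ± 0.251 of the members' summed level against 2.65% ± 0.99 in input. Its libraries there overlapped those of Pcsk1 at 7.44 ± 4.9. Cpe and Scg3 led there with 252 ± 59.8 and 254 ± 163 and overlapped.

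Whether total RNA of these genes differed between the cultures was asked by comparing input with input, the contrast that the choice of members did not use. No member was called (edgeR quasi-likelihood test, FDR 0.999 for each), 0 of 10 had an unadjusted p below 0.05, and over all 8830 genes tested 0 (0%) passed FDR 0.1, 174 had an unadjusted p below 0.05 and DESeq2 called 1. The log2 difference, Cre+ minus Cre-, was -0.10 for Chgb (95% interval -0.45 to 0.24), -0.18 for Scg2 (-0.52 to 0.16), -0.11 for Scg3 (-0.45 to 0.23) and -0.02 for Pcsk1n (-0.51 to 0.48). For Pcsk2 it was -0.25 (-0.63 to 0.14), for Pam -0.20 (-0.58 to 0.18), for Pcsk1 0.10 (-0.42 to 0.62) and for Cpe 0.14 (-0.29 to 0.57). The widest intervals were those of Chga (-0.37, from -0.92 to 0.18) and Scg5 (0.37, from -0.33 to 1.08), and Scg5 is the 1 member whose interval reaches a 2-fold difference. The estimate for Scg5 rests on library 1 of the inputs labelled Cre+, without which it was -0.09. The missed threshold does not show that the inputs were equal.

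**Figure D1:**
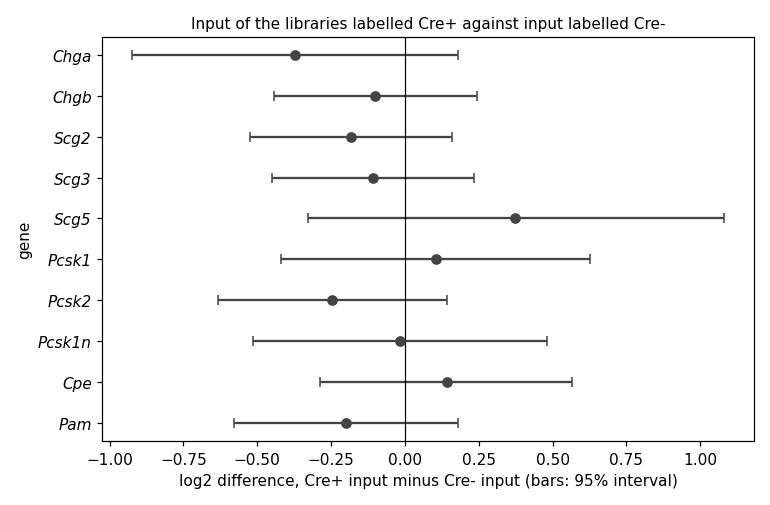
Log2 difference between the inputs labelled Cre+ and the inputs labelled Cre- for each member (x axis), with 95% intervals as bars and n = 3 libraries per label. All 10 intervals cross 0, and that of Scg5 is the widest, from -0.33 to 1.08.

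Among the granins, Chgb carried the clearest difference between pull-down and input in the libraries labelled Cre-. Its normalized counts were 338, 305 and 294 in the inputs and 795, 772 and 766 in the pull-downs labelled Cre-. In the libraries labelled Cre+ they were 307, 251 and 271 in the inputs and 84.3, 160 and 134 in the pull-downs. Every pull-down labelled Cre- thus lay above every input, and every pull-down labelled Cre+ below every input. The log2 fold was 1.32 (SE 0.139) labelled Cre- and -1.13 (SE 0.312) labelled Cre+, or 2.49-fold higher and 2.19-fold lower in the pull-down. The pull-downs labelled Cre- varied by 1.93% (coefficient of variation) for this gene and those labelled Cre+ by 30.4%.

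Scg2 was lower in the pull-down under both labels. It had 406, 420 and 499 normalized counts in the inputs labelled Cre+ and 100.5, 221 and 159 in the pull-downs. With the label Cre- the inputs had 481, 517 and 584 and the pull-downs 428, 344 and 290. The groups did not overlap under either label, and the log2 fold was -1.46 (SE 0.324) labelled Cre+ and -0.57 (SE 0.17) labelled Cre-.

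Scg3 spread more widely. Its pull-downs labelled Cre+ had 211, 614 and 989 normalized counts around inputs of 619, 762 and 652, a log2 fold of -0.16 (SE 0.456). Those labelled Cre- had 699, 375 and 459 against inputs of 842, 767 and 697, a log2 fold of -0.59 (SE 0.207). The groups overlapped under both labels, in the second case by a margin of 1 pull-down at 699 over 1 input at 697. Chga (chromogranin A) had the lowest mean of the set in input, with 19.2 to 24.5 normalized counts in the inputs labelled Cre+ and 8.99 to 18.4 in the pull-downs, without overlap, and 26.5 to 36.1 and 35.5 to 46.3 labelled Cre-, with overlap. Its log2 fold was -0.61 (SE 0.582) and 0.46 (SE 0.231).

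Scg5 (7B2), the chaperone that keeps the PCSK2 precursor inactive until it reaches the granule, had the largest fold of the set. Its normalized counts were 61.5, 30.5 and 27.5 in the inputs labelled Cre+ and 4.22, 3.54 and 5.66 in the pull-downs, from 38, 29 and 49 counts. With the label Cre- they were 36.5, 29.6 and 31.1 in the inputs and 20.5, 39.5 and 22.6 in the pull-downs. The pull-downs labelled Cre+ lay far below their inputs, and those labelled Cre- on both sides of theirs. The log2 fold was -3.15 (SE 0.641) labelled Cre+, 8.89-fold lower and at percentile 0.0894 of the 8947 genes tested, and -0.23 (SE 0.282) labelled Cre-.

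The convertase that Scg5 serves had another pattern. Pcsk2, which cuts late in the granule, had 71.2, 93.4 and 77.8 normalized counts in the inputs labelled Cre+ and 44.0, 83.2 and 78.6 in the pull-downs, which overlapped (log2 fold -0.24, SE 0.391). Labelled Cre-, the inputs had 101, 97.2 and 105 and the pull-downs 183, 202 and 191, without overlap (log2 fold 0.93, SE 0.153). At 1.9-fold this lay just under the 2-fold limit of a call, as Pam at 2.04-fold lower lay just past it. Pcsk1, which cuts early, had 34.4, 48.0 and 51.5 in the inputs labelled Cre+ and 8.99, 50.6 and 52.9 in the pull-downs (log2 fold -0.25, SE 0.646), so a single pull-down, library 1, set its spread. Labelled Cre-, it had 41.1, 37.9 and 52.2 in the inputs and 65.6, 61.9 and 78.1 in the pull-downs, without overlap (log2 fold 0.65, SE 0.206). The PCSK1 inhibitor Pcsk1n (proSAAS) had 120 to 209 normalized counts in the inputs labelled Cre+ and 46.1 to 149 in the pull-downs (log2 fold -0.79, SE 0.468), and 151 to 179 and 69.0 to 153 labelled Cre- (-0.56, SE 0.245), with overlap under both labels.

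Cpe, the most abundant member by count in the inputs, had 1268, 986 and 783 normalized counts in the inputs labelled Cre+ and 397, 559 and 646 in the pull-downs, a log2 fold of -0.92 (SE 0.284) without overlap. Labelled Cre- it had 939.5, 871 and 1093 in the inputs and 916, 1214 and 1069 in the pull-downs, a log2 fold of 0.14 (SE 0.154) with overlap, which became -0.10 with scaling by library size alone. Pam, which makes the C-terminal amide, was the 1 member called lower labelled Cre-, where Scg2, Scg3, Scg5 and Pcsk1n also had negative values. Its inputs there had 171, 181 and 212 normalized counts and its pull-downs 114, 84.3 and 77.9, without overlap (log2 fold -1.03, SE 0.188). Labelled Cre+ the inputs had 132, 160 and 174 and the pull-downs 90.2, 132 and 200.3, with overlap (-0.14, SE 0.352).

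**Figure D2:**
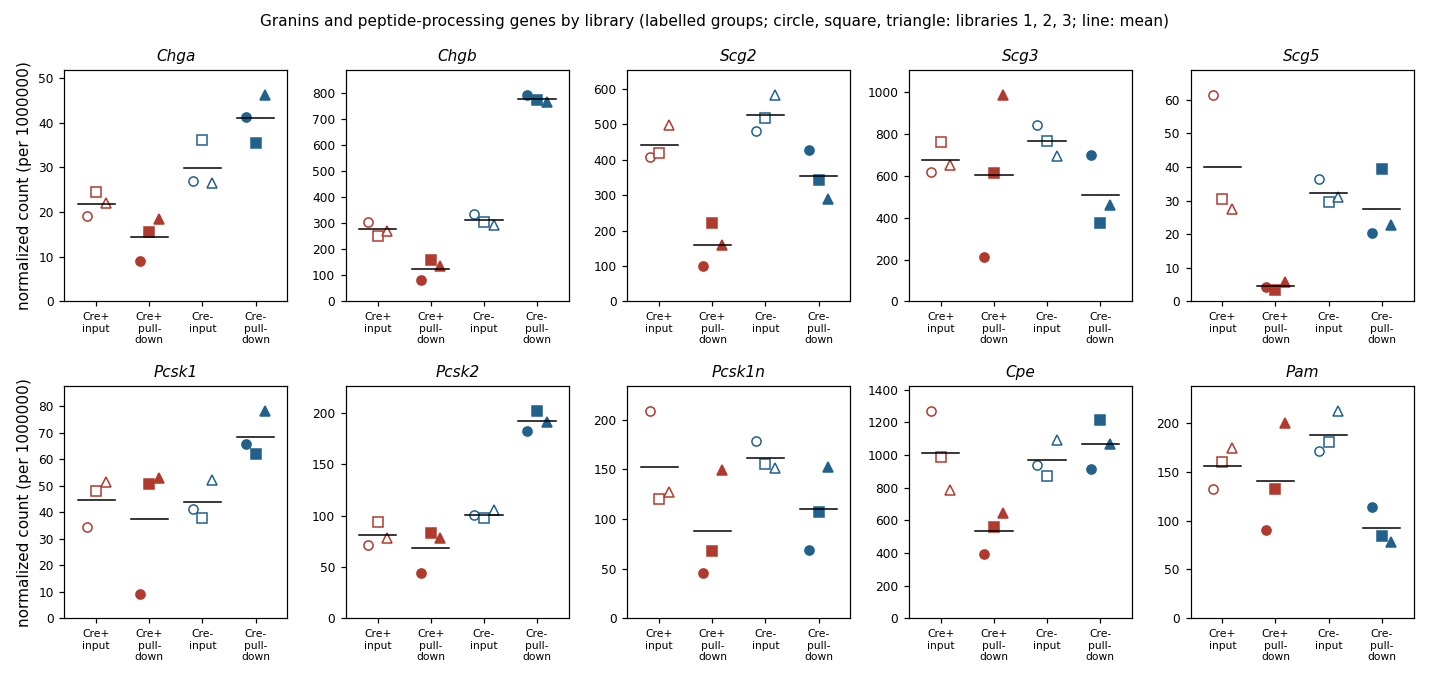
Normalized counts (y axis, TMM-scaled to a library of 1000000, linear from 0) of each member in the 12 libraries by label and fraction, open symbols for input and filled for pull-down, with the mean of 3 libraries as a line. Chgb stands at 766 to 795 in the pull-downs labelled Cre-, Scg5 at 3.54 to 5.66 in those labelled Cre+, and the circle (library 1) is the lowest of the Cre+ pull-downs for 9 of the 10 members.

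Counted over the set, with a call at FDR below 0.1 and a 2-fold change, 0 of 10 members were enriched and 3 depleted (Chgb, Scg2 and Scg5) in the libraries labelled Cre+, where 4.72% and 2.19% of 8947 genes were called. In those labelled Cre-, 1 was enriched (Chgb) and 1 depleted (Pam), where 6.01% and 5.83% of 11526 genes were called. Pull-downs and inputs did not overlap, with the pull-downs higher, for 0 members labelled Cre+ (15.5% of all genes), and with the pull-downs lower for 5 (17.9%), which were Chga, Chgb, Scg2, Scg5 and Cpe. Labelled Cre-, the pull-downs were higher without overlap for 3 (18.2%), Chgb, Pcsk1 and Pcsk2, and lower for 2 (18.6%), Scg2 and Pam. The log2 fold was negative for all 10 members labelled Cre+, with a median of -0.70 against 0.08 over all genes, 47% of which were negative. It was positive for 5 and negative for 5 labelled Cre-, with a median of -0.05 against -0.04. Since the members were chosen with these contrasts known, nothing is read from these counts.

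Library 1 of the pull-downs labelled Cre+ decides part of the pattern: without it 6 of 10 members were negative, Scg3, Pcsk1, Pcsk2 and Pam being above 0, and 2 remained called (Scg2 and Scg5) beside 803 genes enriched and 540 depleted in all. Without library 3 of these pull-downs 1 was called (Scg5), beside 320 and 116, and the log2 fold was -1.39 for Pcsk1n and -0.68 for Scg3. Without any single input labelled Cre+ 0 were called, while the calls over all genes went from 422 enriched and 196 depleted to 7 and 0, 59 and 15, or 4 and 0. The log2 folds in these fits were -1.05 to -1.20 for Chgb, -1.37 to -1.52 for Scg2 and -2.70 to -3.36 for Scg5. Labelled Cre-, Pam missed the 2-fold limit without input 3, pull-down 2 or pull-down 3, with log2 folds of -0.93, -0.97 and -0.91. Scaling by library size alone moved the median of all genes to -0.36 labelled Cre+ and -0.27 labelled Cre-, with 192 enriched and 699 depleted, and 429 and 1238 in place of 693 and 672.

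**Figure D3:**
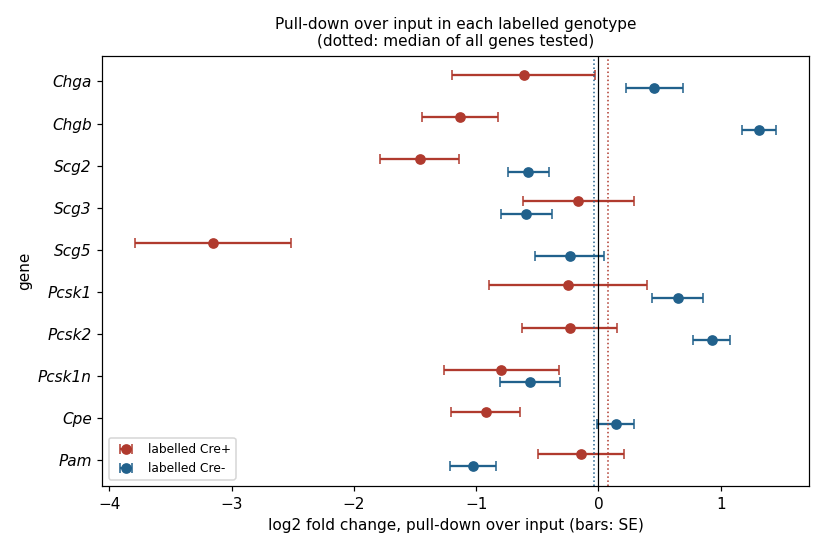
Log2 fold change of pull-down over input (x axis) for each member, with SE as bars, for the 6 libraries labelled Cre+ and the 6 labelled Cre-. Dotted lines mark the medians of all genes tested, 0.08 and -0.04. All 10 Cre+ values are below 0, and Chgb and Scg5 lie farthest from their Cre- values.

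The enrichments of both labels were set against each other in 1 fit of all 12 libraries over 8830 genes, as the log2 fold labelled Cre+ minus that labelled Cre-. The difference was -2.40 (SE 0.317) for Chgb and -2.88 (SE 0.622) for Scg5, the 2 members called lower (2.10% of all genes), and 0 members were called higher (2.58%). It was -1.12 (SE 0.37) for Pcsk2, -1.03 (SE 0.535) for Chga, -1.02 (SE 0.321) for Cpe, -0.85 (SE 0.695) for Pcsk1 and -0.84 (SE 0.368) for Scg2. For Pcsk1n it was -0.18 (SE 0.569), and it was positive for Scg3 (0.47, SE 0.562) and Pam (0.93, SE 0.403). When each library was left out in turn, it ranged from -0.81 to 0.13 for Pcsk1n and from -0.08 to 0.88 for Scg3. Of the 10 members 8 were negative, with a median of -0.93 against 0.13 over all genes. Scg5 was not called without input 1 labelled Cre+, any 1 input labelled Cre-, or pull-down 2 or 3 labelled Cre-. These values come from the contrasts that chose the members and are a description.

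Ratios of counts between members within a library do not depend on how libraries are scaled. The 2 members of a ratio can differ in transcript length, as Scg5 (1208 bases) and Pcsk2 (4723), or Pcsk1n (2193) and Pcsk1 (5040). Length moved with the fold across all genes, as given below, and its part in the ratios was not tested. Chgb per Scg2 was 0.599 ± 0.0992 in the inputs labelled Cre- and 2.25 ± 0.39 in the pull-downs (SD, n = 3), and 0.633 ± 0.11 and 0.802 ± 0.0702 labelled Cre+. The 3 pull-downs labelled Cre-, at 1.86, 2.24 and 2.64, were above the other 9 libraries, the highest of which was 0.846. Scg5 per Pcsk2, the chaperone per convertase, was 0.515 ± 0.303 in the inputs labelled Cre+ and 0.0702 ± 0.0268 in the pull-downs, and 0.321 ± 0.0358 and 0.142 ± 0.0469 labelled Cre-. The pull-downs were below the inputs under both labels, at 0.0425 to 0.096 against 0.327 to 0.864 and at 0.112 to 0.196 against 0.296 to 0.362.

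Pam per Cpe went opposite ways by its means. It was 0.195 ± 0.013 in the inputs and 0.0891 ± 0.0311 in the pull-downs labelled Cre-, and 0.163 ± 0.059 and 0.258 ± 0.0455 labelled Cre+. In both cases the ranges of pull-down and input did not overlap, labelled Cre+ by a thin margin (lowest pull-down 0.227, highest input 0.222). Pcsk1n per Pcsk1, the inhibitor per convertase, was 3.79 ± 0.779 in the inputs and 1.58 ± 0.471 in the pull-downs labelled Cre-, without overlap, and 3.68 ± 2.06 and 3.09 ± 1.9 labelled Cre+, with overlap. Pcsk2 per Pcsk1 overlapped between pull-down and input under both labels in range, from 2.01 to 2.57 and 2.45 to 3.26 labelled Cre- and from 1.51 to 2.07 and 1.49 to 4.89 labelled Cre+.

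**Figure D4:**
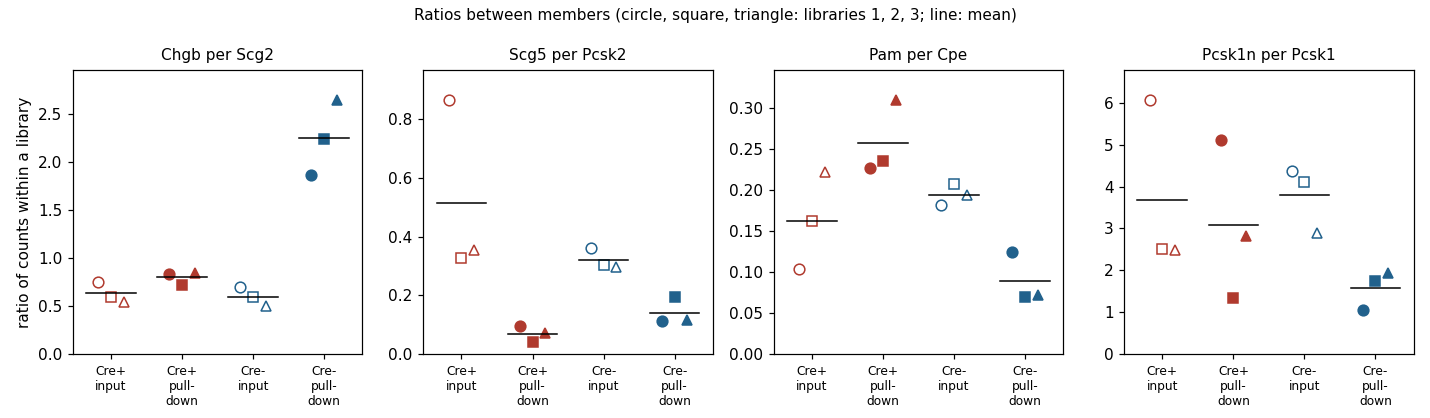
Ratio of the counts of 2 members within each library (y axis, linear from 0) by label and fraction, with the mean of 3 libraries as a line. Chgb per Scg2 is high in the pull-downs labelled Cre- alone, Scg5 per Pcsk2 is lower in the pull-downs of both labels, and Pam per Cpe is lower in pull-down labelled Cre- and higher labelled Cre+.

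Transcript length moved with the fold of pull-down over input across all genes. Spearman's rho between length and log2 fold was 0.547 across 8392 genes labelled Cre+ and 0.361 across 10657 labelled Cre- (genes share the same libraries and are not independent replicates), and it was 0.308 for the difference of both across 8289. When genes were divided by length into 3 groups of equal size, the shortest group had a median log2 fold of -0.64 labelled Cre+ (up to 2822 bases) and -0.32 labelled Cre- (up to 2507 bases), and the longest group 0.71 and 0.22. For GC content rho was -0.003 and -0.03. Of the 10 members 7 were shorter than the median of 3293 bases, and Scg5, at 1208 bases, was the shortest, at percentile 7.7. Pcsk1, Pcsk2 and Pam were the longer ones, with 5040, 4723 and 4102 bases. Labelled Cre+, 7 members, with the 3 called lower among them, fell into the shortest group. Labelled Cre-, Chgb (2740 bases), Scg2 (2515 bases) and Pam fell into the middle group, whose median was -0.03, with values of 1.32, -0.57 and -1.03. The part of length in the members' values was not tested.

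**Figure D5:**
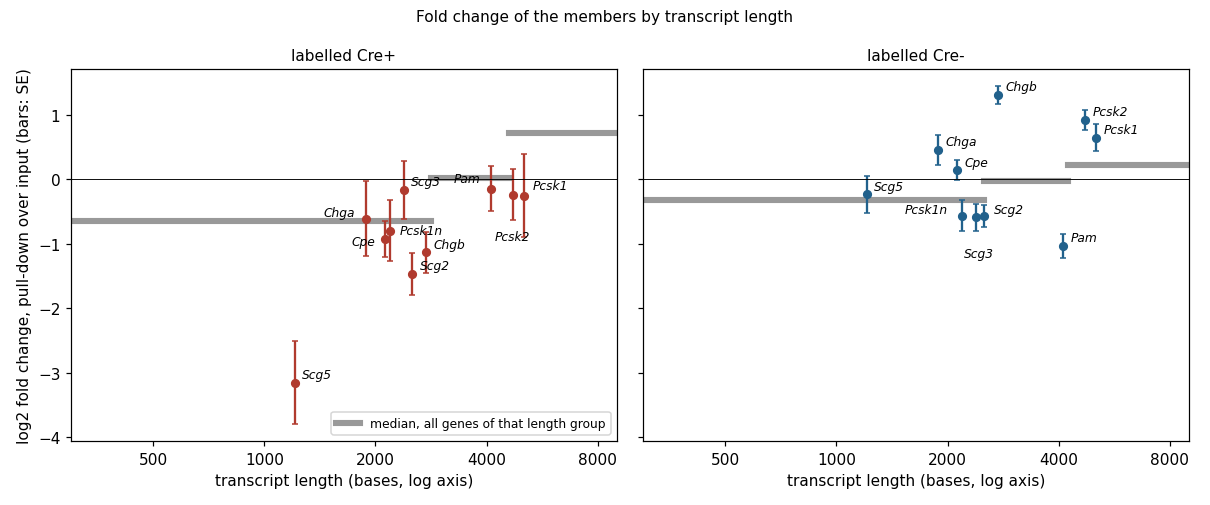
Log2 fold change of pull-down over input (y axis, SE as bars) of each member against the length of its longest coding transcript (x axis, bases, log axis), by label. Grey bars give the median of all genes in each of 3 length groups of equal size (-0.64, 0.02 and 0.71 labelled Cre+ and -0.32, -0.03 and 0.22 labelled Cre-). Scg5, at 1208 bases, is the shortest member and the lowest value labelled Cre+.

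Other genes of the dense-core vesicle were read from 4 lists, with FDR over all genes tested, of which 4.72% were enriched and 2.19% depleted labelled Cre+ (median log2 fold 0.08) and 6.01% and 5.83% labelled Cre- (median -0.04). Of the peptide precursors, 2 of 10 tested were depleted labelled Cre+ and 0 enriched (median log2 fold -1.06), and 7 of 14 depleted and 1 enriched labelled Cre- (median -1.07). Calca and Calcb, the calcitonin gene-related peptide genes, were depleted under both labels, with log2 folds of -1.84 (SE 0.409, FDR 0.0549) and -1.54 (SE 0.367, FDR 0.064) labelled Cre+ and -2.50 (SE 0.315, FDR 0.000855) and -1.82 (SE 0.218, FDR 0.000206) labelled Cre-. Without input 1 or input 3 labelled Cre+ 0 genes were called depleted there, these and Ctsl included. Gal (galanin) and Tac1 (substance P) were depleted labelled Cre-, with -2.09 (SE 0.341, FDR 0.00152) and -1.23 (SE 0.255, FDR 0.00629). Adcyap1, the precursor of PACAP, was enriched there, from 351 ± 133 normalized counts in input to 759 ± 260 in pull-down (1.11, SE 0.313, FDR 0.0397), although its groups overlapped. Nociceptor markers, a list that shares Calca and Tac1 with the precursors, summed to 1440 to 1560 normalized counts in the inputs labelled Cre- and to 230 to 789 in the pull-downs, and to 1410 to 2060 and 992 to 1460 labelled Cre+. Markers of Schwann cells and satellite glia summed to 2760 to 4270 and 1260 to 1660 labelled Cre-, and to 2410 to 3700 and 1640 to 2260 labelled Cre+, and those of fibroblasts and macrophages each to at most 125 in any library. The 3 endothelial markers summed to 46.1 to 82.2 in the inputs and 96.5 to 381 in the pull-downs labelled Cre+, with positive log2 folds for all 3, 0 of them called, and to 58.3 to 87.7 and 15.3 to 112 labelled Cre-. The table labelled Cre+ lists fewer of these markers (6 of 9 glial, 5 of 6 nociceptor and 2 of 6 macrophage genes, against 9, 6 and 4 labelled Cre-), so sums compare within a label. The part of these cells in the values of the precursors and of the members was not tested.

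Among other processing enzymes and helpers, 1 of 7 tested was depleted labelled Cre+ and 0 of 8 called labelled Cre-. It was Ctsl, the protease cathepsin L, with 1250 ± 172 normalized counts in input and 412 ± 92.2 in pull-down (log2 fold -1.59, SE 0.262, FDR 0.0317). For biogenesis and membrane of the vesicle, 0 of 17 were called labelled Cre+ and 1 of 19 labelled Cre-, the sorting receptor Sort1, with 15.7 ± 4.85 in input and 75.8 ± 3.17 in pull-down (2.27, SE 0.258, FDR 0.000149). The median log2 fold of this list was -0.12 and -0.03, against 0.08 and -0.04 over all genes.

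For vesicle release, 1 of 15 was enriched labelled Cre+ and 3 of 18 enriched with 2 depleted labelled Cre-. Unc13a, which primes vesicles for fusion, was enriched under both labels, with 1.37 (SE 0.331, FDR 0.0654) and 1.04 (SE 0.168, FDR 0.00144). Over all genes, the enriched calls labelled Cre+ went from 422 to 7, 59 or 4 without input 1, 2 or 3. The GTPase Rab3c went from 544 ± 30.1 normalized counts in input to 1360 ± 307 labelled Cre- (1.32, SE 0.176, FDR 0.000393), and Myrip, which links vesicles to myosin, from 11.1 ± 3.64 to 35.4 ± 5.08 (1.68, SE 0.3, FDR 0.00266). The calcium sensor Syt9 and the priming factor Cadps2 were depleted there, with -1.03 (SE 0.232, FDR 0.00983) and -1.01 (SE 0.341, FDR 0.0606). The difference between the labels was fitted for 10, 7, 17 and 15 genes of these lists, in the order given above. Adcyap1 (-1.94, SE 0.482, FDR 0.0678) and Sort1 (-2.14, SE 0.509, FDR 0.0621) were called lower labelled Cre+ (2.10% of all genes). Called higher were 0 genes of these lists (2.58% of all genes).

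Across the 12 libraries the members did not form 1 pattern. Pearson's r of log2 normalized counts was 0.922 between Chgb and Pcsk2, 0.906 between Chgb and Chga, and 0.898 between Scg5 and Cpe. It was 0.79 between Scg3 and Pam and -0.42 between Chgb and Pam. The 5 genes most like Scg5, the member with the largest difference, were Pebp1 (r = 0.969), Adrm1 (0.953), Zwint (0.949), BC048546 (0.949) and Etfa (0.948). Their log2 folds ran from -1.96 to -0.90 labelled Cre+ and from -0.52 to -0.03 labelled Cre-. These values share the libraries and their depth and are given as a description.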

How the data were processed

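RNA was measured in 12 libraries, 3 per label and fraction, each from 5 pooled mice, so the errors cover the spread between pools. The authors aligned reads to mm10 with STAR and counted uniquely mapped fragments per gene with HTSeq on refSeq. The deposited counts are whole numbers, not normalized, and the deposited mean FPKM per table was used here only as a filter (above 1). The tables also hold the authors' log2 fold changes, p-values and FDR, which were not used, nor were 18 further per-sample columns. edgeR 4.0.16 (TMM, quasi-likelihood test, robust) in R 4.3.3 was fitted over all genes past the filter, on 6 libraries per label, on all 12 for the difference (8830 genes), and on the 6 inputs. Normalized counts are counts scaled with TMM to a library of 1000000. The SE is the log2 fold divided by the square root of F. Calls required FDR below 0.1 and a 2-fold change (inputs: FDR alone). Totals were 8886308 to 18633365 counts, and limits from counts cover counting error only, since no molecular identifiers are stated. The members and lists were chosen with earlier results of these data known. The genes named were all 10 members, of each list at most the 4 called genes of smallest FDR per direction and comparison, the 5 genes most correlated with the member of largest difference, and Runx3. The markers Ntrk3, Tubb3, Uchl1 and Snap25, and the calls of the difference, were named after their values were seen. Lengths came from GENCODE M21, promoters and gene coordinates from RefSeq (GRCm38.p6). The alternatives were DESeq2 1.42.0, scaling by library size, other filters (none, or at least 10 counts in at least 3 libraries), edgeR's exact test, 1 fit of all 12 libraries, no fold limit, no robust variance (chosen after seeing the data), a replicate block and leaving out each library. Scripts were tested on simulated data.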

Additional observations from a re-analysis of the deposited data

Results flagged for a closer look

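The pull-down to input values of 2 members lay far apart between the labels in the fit of all 12 libraries. For Chgb the log2 enrichment labelled Cre+ minus that labelled Cre- was -2.40 (SE 0.317), with all 3 pull-downs below the inputs labelled Cre+ and all 3 above them labelled Cre-. For Scg5 it was -2.88 (SE 0.622), with all 3 pull-downs below the inputs labelled Cre+ and pull-downs on both sides of the inputs labelled Cre-. The value for Scg5 was not past the threshold of a call in 6 of the 12 fits that left out 1 library. Both genes were selected on these contrasts, so the values describe the libraries and no test is read from them.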

How the results depend on the processing

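Over all members and the alternatives that can move a log2 value, 426 of 450 log2 values moved by at most 1 SE of the main value, 24 moved by more and 0 called values changed sign. The sign of a value that was not called changed in 14 cases, among them Scg3, Pcsk1, Pcsk2 and Pam labelled Cre+ and Cpe labelled Cre-. When each library was left out in turn, the members called lower ranged from 0 to 3 labelled Cre+, from 0 to 1 labelled Cre-, and from 1 to 5 for the difference, with 0 to 1 called higher there (Pam, without pull-down 1 labelled Cre+). Calls over all genes for the difference ranged with them from 15 higher and 31 lower to 712 and 693. The 5 members were called in the fit with 712 and 693, and Pam in that with 632 and 598. The cause was not tested. With no fold limit 3 members were called higher and 3 lower labelled Cre-, beside 1502 and 1284 of 11526 genes. Scaling by library size called 4 lower labelled Cre+ and 3 for the difference, as did DESeq2 for the latter. Calls over all genes labelled Cre+ were 422 enriched and 196 depleted, against 1103 and 568 with DESeq2, 786 and 457 with the exact test, 1240 and 932 with all 12 libraries in 1 fit, and 192 and 699 with library size. Labelled Cre- they were 693 and 672, against 267 and 175 with all 12 libraries in 1 fit (8830 genes) and 429 and 1238 with library size. For the difference, 228 higher and 185 lower became 615 and 420 with DESeq2 and 75 and 282 with library size.

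With the replicate number as a block, labelled Cre-, 1 member was called higher and 1 lower, and 704 and 792 genes in all. Inputs were taken from the lysates of the pull-downs, but the sources used here do not say that equal numbers mark 1 lysate, and the samples were not treated as paired. Deviations of pull-down and input with the same number correlated by 0.0746, 0.0335 and 0.141, and each pull-down correlated best with its own number, a hint from the data only. No paired analysis was possible because the numbers in the Cre+ pull-down columns could not be tied to single samples, their names being those of Cre- titles, for that comparison and for the difference.

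Scg5 had 29 to 49 counts in the pull-downs labelled Cre+. Its normalized counts varied by 24.2% (coefficient of variation) in these pull-downs and by 47.3% in the inputs labelled Cre+. The part of low counts in the precision was not tested.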
